A study of Drosophila melanogaster with 42 samples.

Results

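Chromosome 4 of Drosophila melanogaster is a short autosome that is packaged largely as heterochromatin, and yet most of its genes lie in that chromatin and many of them are transcribed. The regions described here are all regions on chromosome 4 in 6 deposited lists of 2 histone marks of active chromatin, 226 regions of the 16449 in these lists and of the 18571 in all 12 lists of the series. Every region on the chromosome was taken, with no threshold on a value, and the chromosome was picked, with earlier results known, as an autosome nearly absent from the study's lists of MSL2 and MOF. Acetylation of histone H4 at lysine 16 (H4K16ac) gave 38 regions at 3-4 h and 29 at 11-12 h on sonicated chromatin, and 11 and 33 on chromatin digested with micrococcal nuclease (MNase). Trimethylation of histone H3 at lysine 36 (H3K36me3) gave 56 regions at 3-4 h and 59 at 11-12 h, on sonicated chromatin.

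H4K16ac loosens the contact between neighbouring nucleosomes. It is written by the acetyltransferase MOF, which works in the male-specific lethal (MSL) complex on the male X chromosome and in the NSL complex at the starts of active genes on all chromosomes. H3K36me3 is laid down behind elongating RNA polymerase and marks the bodies of transcribed genes. On chromosome 4 the heterochromatin protein HP1a and the chromosome-specific protein POF bind the bodies of active genes, so marks of active and of silent chromatin are known to lie close together there.

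The study profiled whole embryos of 3-4 h and of 11-12 h by chromatin immunoprecipitation and sequencing, in 42 samples, of which 26 were immunoprecipitations and 16 inputs. Sonicated H4K16ac and H3K36me3 had 2 biological replicates per stage, and MNase H4K16ac, MOF and MSL2 had 3. The labels name no mutation, transgene or drug for any group, and they give neither the strain nor the sex of the embryos. Whole embryos hold many cell types, and a region in a list may come from some of them only. Embryos of 3-4 h were digested with 0.9 units of MNase per g and embryos of 11-12 h with 2.9, and this amount and the stage cannot be told apart in the MNase lists. Each list holds only the chromosome, start and end of each region and stands for all replicates of its group, so the values below have no error between replicates and the sequencing depth is unknown. Tests below compare shares of regions or genes between chromosome 4 and the arms 2L, 2R, 3L and 3R, called the other autosomes; regions and genes are not replicates, and no test was made between stages. A background percentage after a count is the share of all regions or genes on the 6 arms (4, 2L, 2R, 3L, 3R and X) that met the same condition. Positions are those of the build dm6.

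MSL2 and MOF were nearly absent from chromosome 4, and they were sparse on the other autosomes too. None of the 517 MOF regions at 3-4 h and none of the 613 at 11-12 h lay there, and none of the 247 and 319 mononucleosomal MSL2 regions did. The other autosomes held 0.368 and 0.754 MOF regions per Mb at the 2 stages, and 0.0644 and 0.0736 mononucleosomal MSL2 regions per Mb. At such rates a chromosome of 1.27 Mb would hold few or none, so this absence does not set chromosome 4 apart from them. Of the subnucleosomal MSL2 peaks, 1 of 131 at 3-4 h and 0 of 295 at 11-12 h lay on chromosome 4. Per Mb this was 0.786 at 3-4 h, where the other autosomes had 0.129, and they had 1.18 at 11-12 h. The single peak, chr4:424708-424907, overlapped no annotated gene. It lay 29.1 kb from dati, a zinc finger gene, and 12.05 kb from lgs, which encodes the legless adaptor of Wingless signalling. The nearest histone region was an H3K36me3 region 11.2 kb away.

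Chromosome 4 was densely covered by both marks for its size. Its span, measured to the last gene or region, was 1.27 Mb and held 80 protein-coding genes, whose bodies (the whole stretch from gene start to gene end, introns included) took up 80.0% of it. These genes had a median length of 10090 bp, against 2080 bp on the other autosomes. Regions of H3K36me3 covered 21.6% of the span at 3-4 h and 27.2% at 11-12 h, against 13.1% and 13.2% of the other autosomes. Sonicated H4K16ac covered 8.11% and then 4.38%, against 3.98% and 2.30%. MNase H4K16ac covered 1.15% and then 5.41%, against 0.931% and 1.60%. Chromosome 4 thus stood above the pooled other autosomes in each of the 6 lists.

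**Figure D1:**
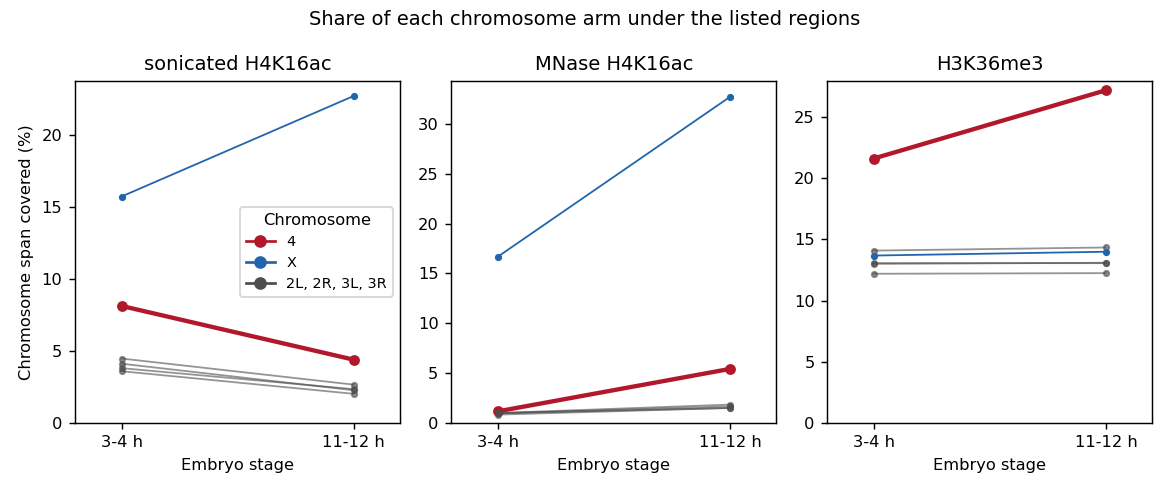
Share of the span of each chromosome arm (%, vertical axis) under the regions of each list at 3-4 h and 11-12 h; each line is 1 arm, and each panel has its own scale. Chromosome 4 covers 21.6% and then 27.2% in H3K36me3 while the other arms stay nearly level, and its MNase H4K16ac goes from 1.15% to 5.41%.

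The 2 preparations of H4K16ac gave opposite stage differences on chromosome 4. On sonicated chromatin the covered length was 103 kb at 3-4 h and 55.7 kb at 11-12 h, a ratio of 0.540. The arms 2L, 2R, 3L and 3R had ratios between 0.551 and 0.616, and X had 1.44. On MNase chromatin the covered length was 14.6 kb and then 68.8 kb, a ratio of 4.72, where the other autosomal arms had ratios from 1.52 to 1.86 and X had 1.96. The length of H3K36me3 was 275 kb and then 346 kb, a ratio of 1.26, where the other autosomal arms had 0.999 to 1.02 and X had 1.02. Chromosome 4 therefore lay just below the range of the other autosomal arms in sonicated H4K16ac and above it in MNase H4K16ac and in H3K36me3. Median widths on chromosome 4 were 2376.5 bp and then 1764 bp for sonicated H4K16ac, 1260 bp and 1789 bp for MNase H4K16ac, and 4385 bp and 5882 bp for H3K36me3. The narrowest region in these lists was 1000 bp.

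Most H3K36me3 regions of chromosome 4 were found at both stages, and H4K16ac regions less evenly. Of the 56 H3K36me3 regions of 3-4 h, 55 overlapped one of 11-12 h by at least 1 bp (98.2%, background 95.5%). The exception was a 1000 bp region, the narrowest of its list, inside CaMKII, which encodes a calcium-dependent protein kinase. In the other direction 50 of 59 overlapped (84.7%, background 91.6%). The 9 H3K36me3 regions seen at 11-12 h alone lay in 6 genes, 3 of them in Cadps, 2 in pho, and 1 each in Tdg, Gyf, CG46466 and CG31999. Of sonicated H4K16ac regions, 21 of 38 were kept at 11-12 h (55.3%, background 68.0%), and 27 of the 29 late ones had an early counterpart (93.1%, background 76.4%). Of MNase H4K16ac regions, 10 of 11 were kept (90.9%, background 83.1%), but 9 of 33 late ones had an early counterpart (27.3%, background 43.0%). None of these 6 shares passed the test against the other autosomes (two-sided Fisher's exact test, Benjamini-Hochberg adjusted p from 0.179 to 0.869). For the early sonicated H4K16ac regions the difference was -1.86 percentage points, with a 95% interval from -17.6 to 12.9. For the late H3K36me3 regions it was -7.23 points (-18.5 to -0.145). The largest difference was that of the early MNase H4K16ac regions, 29.1 points (0.266 to 37.5), where the other autosomes had 61.8%. The late MNase regions gave -12.2 points (-24.8 to 5.02), the late sonicated ones 9.03 (-6.14 to 14.4) and the early H3K36me3 ones 2.68 (-5.01 to 4.35).

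The regions of H3K36me3 that matched one to one between the stages were mostly wider at 11-12 h. On chromosome 4, 37 of 46 such pairs were wider (80.4%, background 42.4%), against 995 of 2384 on the other autosomes (41.7%). The difference was 38.7 points (95% Newcombe interval 24.9 to 47.8, two-sided Fisher's exact test, adjusted p = 5.13e-07). On single arms the share went from 39.1% on 3R to 44.3% on 3L, and X had 42.3%. The median ratio of widths was 1.09 on chromosome 4 and 0.988 on the other autosomes, so most of the pairs widened by little. The difference was also seen among regions that touch only genes of at least 5 kb, with 26 of 34 against 234 of 537 pairs wider (adjusted p = 0.000783, Fisher's exact test).

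Of the 46 pairs, 6 had a ratio of widths over 1.5, the largest being 3.74, and no pair was narrower by that much. The region in CaMKII went from 2.28 kb to 8.50 kb. The region at ND-49, a subunit of respiratory complex I, went from 3.53 kb to 8.20 kb. Most of the added length lay on the neighbouring gene Pur-alpha, whose body gained 4.16 kb, against 0.193 kb for ND-49. At CaMKI, another calcium-dependent kinase, the region went from 4.10 kb to 8.23 kb, and at Arf4, a small GTPase of vesicle traffic, from 2.01 kb to 4.15 kb. The late region at Arf4 reached 1.41 kb into CG11155, while the body of Arf4 itself gained 0.009 kb. The widest region of all, chr4:913176-930668, was 17.5 kb long at 11-12 h and lay on eIF4G1, the scaffold of the cap-binding translation initiation complex; at 3-4 h 2 regions lay in its place.

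MNase H4K16ac pairs were few and all wider at 11-12 h. All 8 pairs of chromosome 4 were wider (100%, background 70.1%), against 197 of 348 on the other autosomes (56.6%), a difference of 43.4 points (10.6 to 48.6, Fisher's exact test, adjusted p = 0.0345). This call did not hold when neighbouring regions were joined (adjusted p = 0.0674), nor at genes of at least 5 kb (7 of 7 against 18 of 26, adjusted p = 0.231, both Fisher's exact test). The median ratio of widths was 1.74 on chromosome 4 and 1.10 on the other autosomes. X was like chromosome 4 in this list, with 159 of 163 pairs wider (97.5%) and a median ratio of 1.99. Of the sonicated H4K16ac pairs 5 of 15 were wider (33.3%, background 32.4%), 13.6 points above the other autosomes with an interval from -4.70 to 38.7 (adjusted p = 0.195, Fisher's exact test). On X 80.7% of the sonicated pairs were wider.

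**Figure D2:**
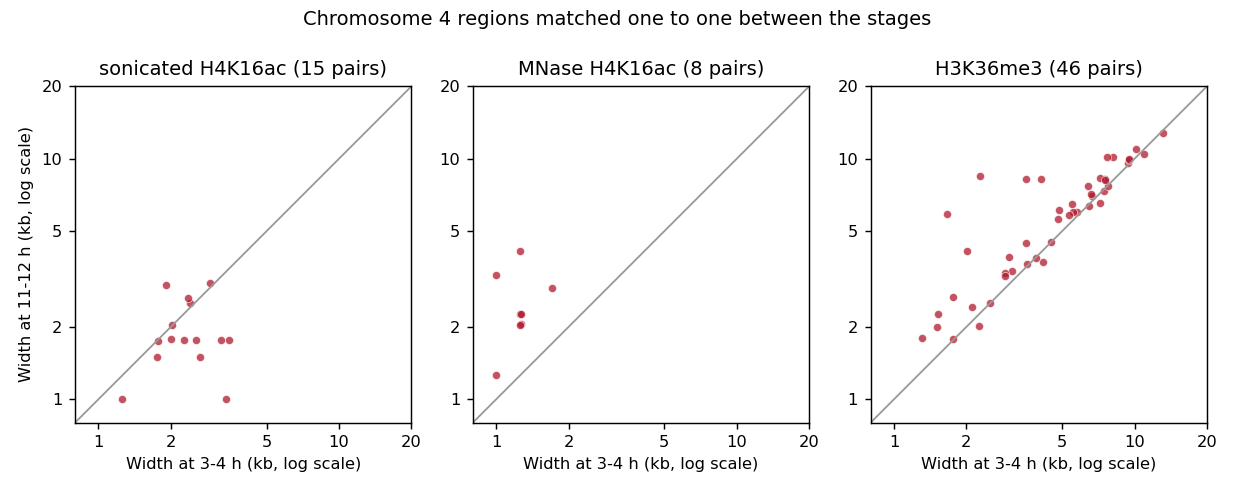
Width at 11-12 h against width at 3-4 h (kb, both axes logarithmic) for each chromosome 4 region with exactly 1 partner in the other stage; points above the grey line of equal width were wider at 11-12 h. Of the H3K36me3 pairs 37 of 46 lie above the line, of the MNase H4K16ac pairs 8 of 8, and of the sonicated H4K16ac pairs 5 of 15.

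H3K36me3 covered more of the bodies of the genes it touched than H4K16ac did, with a wide range between genes. The median share of the body covered, over the chromosome 4 genes touched, was 68.6% at 3-4 h and 74.1% at 11-12 h for H3K36me3. More than 50% of the body was under H3K36me3 in 28 of the 49 early and 33 of the 53 late genes, and the whole body in 2 and 5. The median was 15.3% and 12.6% for sonicated H4K16ac and 9.44% and 14.6% for MNase H4K16ac. The same medians on the other autosomes, where genes are shorter, were 92.8% and 90.3%, 40.8% and 35.9%, and 51.0% and 55.5%. Of the H3K36me3 regions, 94.6% at 3-4 h and 91.5% at 11-12 h had their midpoint inside a protein-coding gene. For sonicated H4K16ac this share was 60.5% and 72.4%, and for MNase H4K16ac 100% of 11 regions and 90.9% of 33. The other autosomes had 96.5% and 96.9% for H3K36me3, 74.6% and 80.2% for sonicated and 94.0% and 90.9% for MNase H4K16ac, so these shares were near or below the general ones, except for the 11 early MNase regions.

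The regions of H4K16ac were centred nearer to gene ends than those of H3K36me3, and those of chromosome 4 less near than on the other autosomes. The median distance from a region's midpoint to the nearest gene end, start or stop, was 577 bp and 429.5 bp for sonicated H4K16ac at 3-4 h and 11-12 h, and 561.5 bp and 628 bp for MNase H4K16ac. For H3K36me3 it was 2798 bp and 3016.5 bp. The other autosomes gave 201.5 bp and 215 bp, 462 bp and 431.5 bp, and 755.5 bp and 807.5 bp for the same lists. A gene end lay within 27 of the 38 early and 22 of the 29 late sonicated H4K16ac regions, and within 7 of 11 and 19 of 33 MNase regions. As shares these were 71.1%, 75.9%, 63.6% and 57.6%, against 92.02%, 88.9%, 71.1% and 81.5% on the other autosomes. For H3K36me3 it held in 27 of 56 and 33 of 59 regions, 48.2% and 55.9%, against 87.0% and 84.4%. Gene ends are sparser on chromosome 4, with 62.9 protein-coding genes per Mb against 107 and a median gene length of 10090 bp against 2080 bp. The part of this spacing in the differences between chromosomes was not tested. Which end of a gene was meant was not analysed here, since the gene table used gives no strand.

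**Figure D3:**
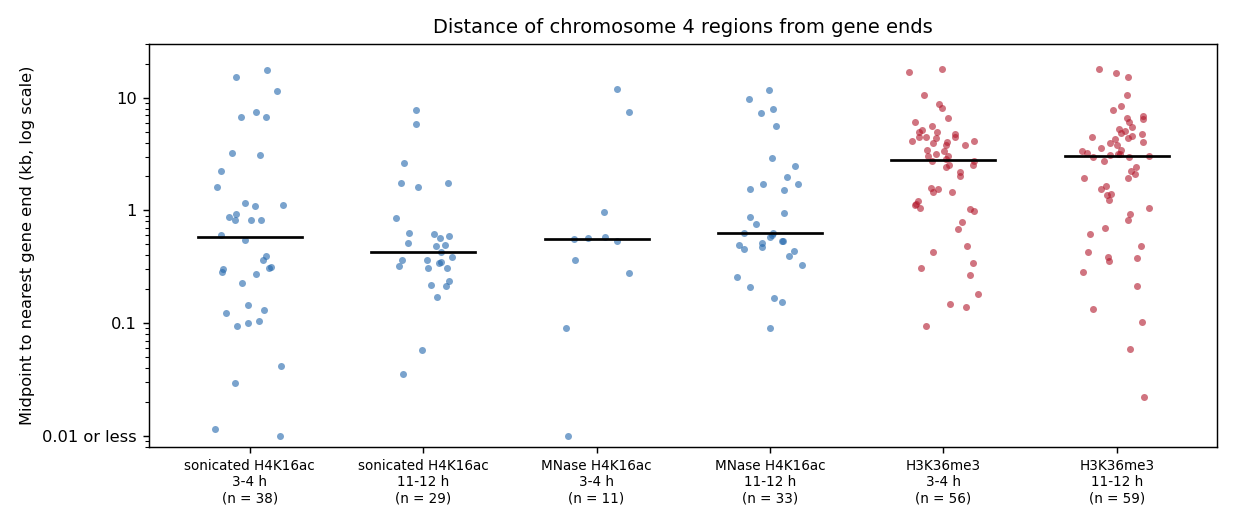
Distance from the midpoint of each chromosome 4 region to the nearest end of a protein-coding gene (kb, logarithmic axis; values under 0.01 kb are drawn at 0.01); points are regions, blue for H4K16ac and red for H3K36me3, and bars are medians. The medians of H4K16ac lie between 429.5 and 628 bp and those of H3K36me3 at 2798 and 3016.5 bp.

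Sonicated H4K16ac touched a larger share of genes on chromosome 4 than on the other autosomes at both stages. It touched 46 of the 80 genes at 3-4 h (57.5%, background 37.2%) against 32.9% on the other autosomes, a difference of 24.6 points (13.6 to 34.9, Fisher's exact test, adjusted p = 2.16e-05). At 11-12 h it touched 31 (38.75%, background 29.2%) against 21.9%, a difference of 16.9 points (6.94 to 27.9, adjusted p = 0.00123, Fisher's exact test). MNase H4K16ac touched 11 genes at 3-4 h (13.75%, background 16.9%) against 9.01%, which did not pass the test (4.74 points, -1.18 to 14.0, adjusted p = 0.166, Fisher's exact test). At 11-12 h it touched 31 (38.75%, background 23.8%) against 14.2%, a difference of 24.6 points (14.6 to 35.5, adjusted p = 3.79e-07, Fisher's exact test). Among genes of at least 5 kb the 4 differences were 24.5, 17.3, 10.3 and 28.4 points, each past the threshold (adjusted p from 1.59e-09 to 0.00210, Fisher's exact test). With X in place of the other autosomes the sign turned: the difference was -1.72 points at 3-4 h and -29.3 points at 11-12 h on sonicated chromatin, and -45.4 and -35.7 points on MNase chromatin. The sign also turned when at least 50% of a gene body had to be covered, with differences from -6.33 to -1.44 points that did not pass the threshold (adjusted p of 0.814 or 0.833, Fisher's exact test).

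H3K36me3 touched 49 genes at 3-4 h (61.25%, background 51.3%) and 53 at 11-12 h (66.25%, background 52.2%). Against the other autosomes the differences were 10.5 points (-0.504 to 20.5, adjusted p = 0.0866) and 14.8 points (3.83 to 24.2, adjusted p = 0.0143, both Fisher's exact test). Among genes of at least 5 kb these came to 0.922 and 3.49 points, and the second call was lost (adjusted p = 0.725, Fisher's exact test). Both marks, H4K16ac of either preparation and H3K36me3, touched 40 genes at 3-4 h and 36 at 11-12 h (50.0% and 45.0%). Only H4K16ac touched 6 and then 2, only H3K36me3 touched 9 and then 17, and neither touched 25 at each stage. These combinations were not counted on other chromosomes, so they do not show whether chromosome 4 differs in them.

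**Figure D4:**
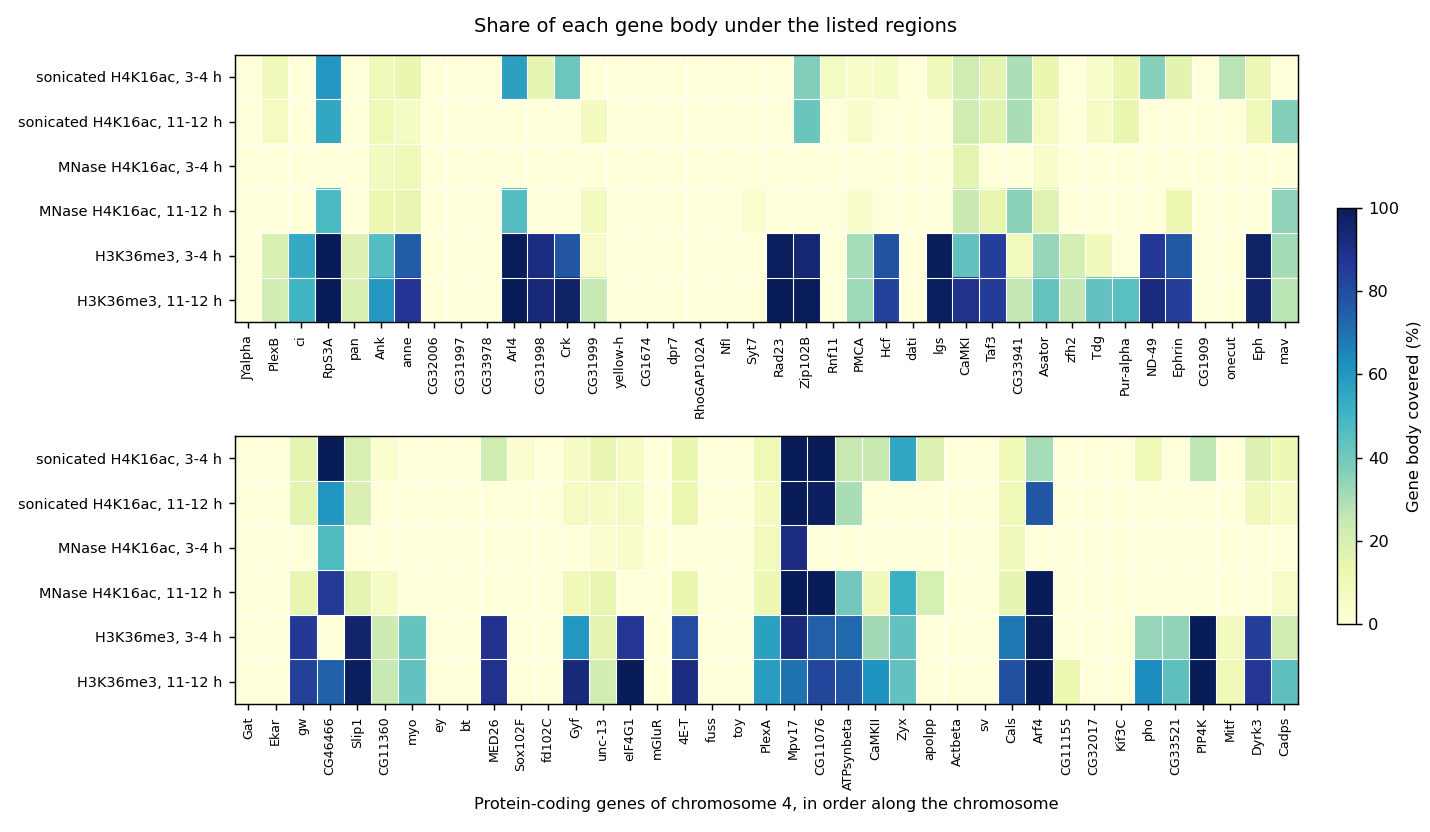
Share of the body of 79 of the 80 protein-coding genes of chromosome 4 (columns, in order along the chromosome) under the regions of the 6 lists (rows); the colour scale runs from 0% to 100%. The H3K36me3 rows hold most of the dark cells, the H4K16ac rows are mostly pale apart from a few genes such as Mpv17 and CG11076, and 22 genes are blank in every row.

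Counts in the gene groups below stand beside those of all 80 genes, of which 57.5% and 38.75% carried sonicated H4K16ac at 3-4 h and 11-12 h, 13.75% and 38.75% MNase H4K16ac, and 61.25% and 66.25% H3K36me3. No group was tested against the rest. In the group of translation, RNA and protein turnover all 8 genes carried H3K36me3 at 3-4 h and at 11-12 h, where it covered a median of 95.6% of their bodies at the later stage, and 7 (87.5%) carried sonicated H4K16ac at each stage. RpS3A, a protein of the small ribosomal subunit, had 100% of its body under H3K36me3 at both stages and 60.4% and then 55.0% under sonicated H4K16ac. The body of eIF4G1 was 87.1% and then 99.7% under H3K36me3. For gw, which carries out gene silencing by microRNAs, it was 85.8% and 83.5%. Rad23, a carrier of ubiquitinated proteins, was the member with no H4K16ac in any list, although 98.4% and then 100% of its body was under H3K36me3. MNase H4K16ac touched 1 of the 8 at 3-4 h, eIF4G1, and 5 at 11-12 h (12.5% and 62.5%). Tdg, listed here too, encodes a DNA glycosylase, and its body was 9.46% and then 43.1% under H3K36me3.

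Among 18 transcription factors and regulators, 8 carried sonicated H4K16ac at 3-4 h and 2 at 11-12 h (44.4% and 11.1%), where all 80 genes gave 46 and 31. The 2 were Taf3, a subunit of the general factor TFIID, and Pur-alpha, a single-strand nucleic acid binding protein. The regulators without it at the later stage included pho, which recruits Polycomb complexes, with 10.7% of its body covered at 3-4 h and 0% at 11-12 h, and lgs with 9.42% and 0%. H3K36me3 touched 9 and then 10 of the 18 (50.0% and 55.6%), Pur-alpha being the addition, with 45.0% of its body at 11-12 h. The body of pho was 33.5% and then 63.5% under H3K36me3, that of lgs 99.1% and 98.6%, and that of ci, the effector of Hedgehog signalling, 54.0% and 49.9%. In ci and in pan, the T cell factor of the Wingless pathway, no H4K16ac region of any list touched the body. H4K16ac lay close to ci, however. An MNase region of 11-12 h began 32 bp from its annotated body. On the same side sonicated regions lay 2251 bp away at 3-4 h and 1154 bp away at 11-12 h. Another sonicated region of 3-4 h, chr4:42691-46078, lay nearer than 2251 bp on the other side of ci. No list touched ey and toy, the Pax6 genes of eye development, sv (a Pax2 gene), dati, fd102C or NfI.

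Of 15 genes for ligands, receptors and signalling, 9 and then 7 carried sonicated H4K16ac (60.0% and 46.7%), 3 and then 5 MNase H4K16ac (20.0% and 33.3%), and 11 at both stages H3K36me3 (73.3%). The widest H3K36me3 region of 3-4 h, chr4:611014-624089 with 13.1 kb, lay on Eph, the receptor of the guidance ligand Ephrin, whose body was 97.2% and then 95.6% covered. Ephrin itself had 76.4% and 84.0% of its body under H3K36me3. Its sonicated H4K16ac was 15.7% and then 0%, and its MNase H4K16ac 0% and then 12.0%. PlexA, a semaphorin receptor of growing axons, was 57.1% and then 58.4% under H3K36me3 and was touched by all 6 lists. The body of CaMKI was 43.0% and then 88.9% under H3K36me3. No list touched the activin gene Actbeta, the glutamate receptor genes mGluR and Ekar, or RhoGAP102A.

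Of 9 genes of synapse and neuron, the same number, 4 (44.4%), carried sonicated H4K16ac and H3K36me3 at each stage, below the share of all 80 genes for H3K36me3 and for sonicated H4K16ac at 3-4 h. These were Ank, which anchors membrane proteins to the cytoskeleton, Cadps and unc-13, which prepare vesicles for release, and Cals, a calsyntenin. Cadps had 22.5% and then 44.2% of its 40.9 kb body under H3K36me3, the largest gain in length among the 80 genes, 8.88 kb. MNase H4K16ac touched 3 and then 5 of the 9 (33.3% and 55.6%), with Cadps and Syt7 added. In Syt7, a synaptotagmin, it covered 3.60% of the body, and that was the only mark on this gene. No list touched Gat, a GABA transporter, or dpr7.

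Of 5 genes of metabolism and transport, 4 and then 3 carried sonicated H4K16ac (80.0% and 60.0%), none and then 3 MNase H4K16ac (60.0%), and 3 at both stages H3K36me3 (60.0%, slightly below the share of all 80 genes). ATPsynbeta, of the mitochondrial ATP synthase, was 72.4% and 77.0% under H3K36me3, and PMCA, the calcium pump of the plasma membrane, 30.7% and 32.2%. The lipid carrier gene apolpp had sonicated H4K16ac on 17.8% of its body at 3-4 h and MNase H4K16ac on 20.0% at 11-12 h, with no H3K36me3 at either stage. The gene overlaps Zyx, and all these H4K16ac regions lay within the body of Zyx. They were counted for both genes and cannot be assigned to apolpp. Of 6 genes of cytoskeleton and trafficking, 4 and then 2 carried sonicated H4K16ac (66.7% and 33.3%), 1 and then 4 MNase H4K16ac (16.7% and 66.7%), and 4 and then 5 H3K36me3 (66.7% and 83.3%). The giant muscle protein gene bt, the longest of the chromosome with 52.1 kb, was touched by no list.

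Genes were called gained or lost where a list of one stage touched them and that of the other did not, with no test between the stages. By this rule 17 genes lost sonicated H4K16ac (21.25%, background 11.4%) and 2 gained it (2.50%, background 3.46%). The 2 were mav, a ligand of the TGF-beta family, and CG31999. On the other autosomes 13.4% of genes lost it and 2.34% gained it. Only a gene touched at 3-4 h can lose the mark, and chromosome 4 had a larger share of such genes. Of its 46 genes touched at 3-4 h 17 lost it, against 1560 of 3832 on the other autosomes. The 15 of the 17 with the widest regions were Zyx, apolpp, pho, Hcf, Rnf11, CG31998, Ephrin, ND-49, PIP4K, onecut, CaMKII, MED26, Crk, lgs and Arl4. Zyx and apolpp overlap and were counted from the same region. At 11-12 h H3K36me3 was present on 13 of the 17 and MNase H4K16ac on 6, where 53 (66.25%) and 31 (38.75%) of all 80 genes carried them. Zyx, a protein of cell adhesions, had 54.7% of its body under sonicated H4K16ac at 3-4 h and 0% at 11-12 h, while 51.9% of it was under MNase H4K16ac at 11-12 h. A gene listed as losing the mark on one preparation could thus carry it on the other.

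MNase H4K16ac was gained by 21 genes (26.25%, background 9.58%) and lost by 1 (1.25%, background 2.68%), eIF4G1, where 4.88% of the body was covered at 3-4 h. Of the 21 genes, 18 had sonicated H4K16ac at 3-4 h and 14 had it at 11-12 h, where 46 (57.5%) and 31 (38.75%) of all 80 genes had it. The 15 with the widest regions were ATPsynbeta, CG11076, Slip1, Zyx, apolpp, Cadps, gw, PMCA, CaMKII, CG33941, mav, Gyf, Arf4, CG11360 and 4E-T. Zyx and apolpp were again counted from the same regions. H3K36me3 was gained by 4 genes (5.00%, background 3.00%), Pur-alpha, CG46466, CG11155 and Kif3C, and lost by none (background 2.10%). In Pur-alpha and CG11155 it belonged to the widened regions at ND-49 and Arf4 named above. In Kif3C, a kinesin motor gene, the region reached 0.0919% of the body. CG46466 went from 0% to 74.1% of its body.

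Most of the new H3K36me3 lay in genes that already had some. Across chromosome 4, 75.1 kb was under H3K36me3 at 11-12 h alone and 3.99 kb at 3-4 h alone. Of the 53 genes touched at either stage, 45 had a larger share of their body covered at 11-12 h, 6 a smaller one and 2 the same. The share was larger by over 10 points in 18 genes and smaller by over 10 points in 1, Mpv17, whose body of 0.687 kb went from 93.0% to 69.6%. The body of Gyf went from 60.5% to 92.9%. For sonicated H4K16ac 33 genes of 48 had a smaller share at 11-12 h and 14 a larger one. For MNase H4K16ac 31 of 32 had a larger one. These gene counts were not made on the other autosomes. The covered length there had a stage ratio of 0.578 for sonicated and 1.72 for MNase H4K16ac, in the same directions, and 1.01 for H3K36me3.

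The 2 marks overlapped less on chromosome 4 than on the other autosomes when all regions were taken. Of sonicated H4K16ac regions at 3-4 h, 24 of 38 overlapped H3K36me3 (63.2%, background 83.4%) against 86.6% on the other autosomes, a difference of -23.5 points (-39.4 to -9.93, Fisher's exact test, adjusted p = 0.000567). At 11-12 h 15 of 29 did (51.7%, background 77.2%) against 86.6% (-34.9 points, -52.2 to -17.9, adjusted p = 3.16e-05, Fisher's exact test). Of MNase H4K16ac regions 3 of 11 overlapped H3K36me3 at 3-4 h (27.3%, background 80.3%) against 87.2%, and 18 of 33 at 11-12 h (54.5%, background 69.6%) against 87.1%. These differences were -59.9 points (-77.6 to -30.5) and -32.6 points (-49.3 to -16.8), each with an adjusted p = 3.16e-05 by Fisher's exact test. H3K36me3 was measured on sonicated chromatin alone, so the MNase comparison is across preparations.

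The calls also ended among the widest 50% of each list, where chromosome 4 had 25, 11, 1 and 16 H4K16ac regions and the differences went from -59.5 to -21.4 points (adjusted p from 0.114 to 0.468, Fisher's exact test).

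Among long genes the difference in overlap did not pass the test. Among regions that touch only genes of at least 5 kb, sonicated H4K16ac overlapped H3K36me3 in 14 of 25 regions on chromosome 4 (56.0%) and in 47.7% of those on the other autosomes at 3-4 h (8.35 points, -11.5 to 26.6, adjusted p = 0.709, Fisher's exact test). At 11-12 h it did so in 7 of 18 (38.9%) and in 41.9% (-2.98 points, -22.8 to 20.5, adjusted p = 1, Fisher's exact test). For MNase H4K16ac the shares were 22.2% of 9 regions against 52.4% (adjusted p = 0.408) and 52.2% of 23 regions against 50.9% (adjusted p = 1, both Fisher's exact test). None of these 4 differences between chromosomes passed the threshold at long genes.

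Seen from H3K36me3, 26 of 56 regions at 3-4 h held sonicated H4K16ac (46.4%, background 64.4%) against 59.2% (adjusted p = 0.0843), and 14 of 59 at 11-12 h (23.7%, background 51.6%) against 41.1% (adjusted p = 0.00957, both Fisher's exact test). MNase H4K16ac lay in 3 of 56 (5.36%, background 32.7%) against 19.6% (adjusted p = 0.00876) and in 19 of 59 (32.2%, background 41.1%) against 27.3% (adjusted p = 0.381, both Fisher's exact test). At genes of at least 5 kb these differences were positive in all 4 comparisons. Chromosome 4 then had the larger share past the threshold in 2 of them, sonicated H4K16ac at 3-4 h (38.6% against 18.8%, adjusted p = 0.0123) and MNase H4K16ac at 11-12 h (28.3% against 5.16%, adjusted p = 1.18e-05, both Fisher's exact test).

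Counted in bases, the marks of chromosome 4 lay side by side more than on top of each other. Of the bases under sonicated H4K16ac 19.6% at 3-4 h and 24.1% at 11-12 h were also under H3K36me3, against 64.2% and 65.7% on the other autosomes. For MNase H4K16ac the values were 12.0% and 23.6%, against 71.7% and 71.0%. At genes of at least 5 kb the other autosomes came nearer, with 14.7% against 24.8% and 16.4% against 20.8% for sonicated H4K16ac, and 9.54% against 32.9% and 17.4% against 25.4% for MNase H4K16ac. Chromosome 4 had the lower share of bases in all 8 of these pairs, which were not tested.

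The share of positions under H3K36me3 was low at the midpoint of an H4K16ac region of chromosome 4 and higher some kb away. For sonicated H4K16ac it was 13.2% at the midpoint and 46.1% at a distance of 5 kb at 3-4 h, and 24.1% and 56.9% at 11-12 h. For MNase H4K16ac it was 9.09% and 45.5%, then 27.3% and 60.6%. At these distances the other autosomes had the lower share at 5 kb, with 57.7% and 46.3%, 59.6% and 49.5%, 74.8% and 49.8%, and 75.6% and 46.8%. Nearer to the midpoint their share around sonicated H4K16ac was higher than at it, as on chromosome 4, with 66.5% at 2 kb at 3-4 h and 70.5% at 1.5 kb at 11-12 h.

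**Figure D5:**
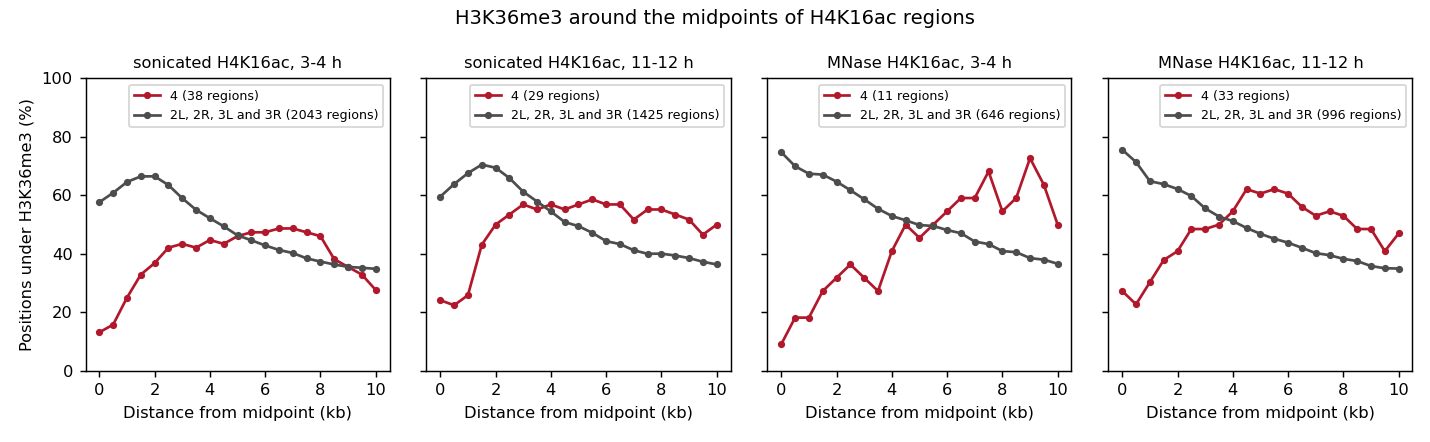
Share of positions under an H3K36me3 region of the same stage (%) against the distance from the midpoint of H4K16ac regions (kb, both sides together), for chromosome 4 in red and the other autosomes in grey. At the midpoint chromosome 4 has 9.09% to 27.3% and the other autosomes 57.7% to 75.6%; at 5 kb chromosome 4 has 45.5% to 60.6%.

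The H4K16ac regions of the 2 preparations shared places on chromosome 4. At 3-4 h all 11 MNase regions lay wholly within sonicated regions, and on the other autosomes 86.2% overlapped one. At 11-12 h 77.7% of the sonicated bases were under MNase regions, against 43.1% on the other autosomes, and 24 of 29 sonicated regions overlapped one (82.8% against 49.8%). In the other direction the chromosomes were close, with 62.9% against 62.0% of the MNase bases and 23 of 33 MNase regions (69.7% against 70.2%). Both preparations touched 24 genes at 11-12 h, and all 24 carried H3K36me3 too, where 53 of all 80 genes did (66.25%, background 52.2%). The same count was not made on the other autosomes. Marks on the same gene need not overlap: 15 of 29 sonicated and 18 of 33 MNase regions of that stage overlapped H3K36me3. The place with the widest H4K16ac was the same on both. It was chr4:1025286-1032327 in the sonicated list of 3-4 h (7.04 kb) and chr4:1025010-1032855 in the MNase list of 11-12 h (7.85 kb), over the end of PlexA, Mpv17, CG11076 and the end of ATPsynbeta.

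Taken over all 6 lists, the regions merged into 67 loci of 439 kb, 34.5% of the span. Of these, 6 loci held regions of every list, 27 held H3K36me3 alone and 13 H4K16ac alone. The 9 genes touched by all 6 lists included unc-13, Asator (a kinase gene), PlexA, Ank and anne, the longest 5 of them. Another 22 genes were touched by none. At least 1 list touched 72.5% of the protein-coding genes of chromosome 4, against 56.0% on the other autosomes, so untouched genes were less common here. The rest of the chromosome held 12 stretches of at least 25 kb with no region of any list, 574 kb or 45.1% of the span, with 18 whole genes inside. The longest, chr4:693002-777830 with 84.8 kb, held ey and bt. The next, chr4:226735-305115 with 78.4 kb, held yellow-h, CG1674, dpr7, RhoGAP102A and NfI. Stretches of 61.2 kb, 49.2 kb and 48.0 kb held dati, then Actbeta and sv, then fuss and toy. Loci, genes touched by all 6 lists and stretches without regions were not counted on the other autosomes.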

How the data were processed

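The authors deposited 12 lists of regions, 1 per antibody, chromatin preparation and stage (with 2 for MSL2), each with a chromosome, start and end and no score, count or strand; per the labels each list stands for all replicates of a group. Per the submitters' processing notes the tools were HOMER, SAMtools and Bowtie2 2.2.9 on build dm6, with no settings; how inputs and replicates entered the lists is not given in the sources used here. How the lists were called can set how many and how wide the regions are.

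From the lists, regions, covered bases, overlaps of at least 1 bp and genes touched were counted with Python 3.11.15, numpy 2.4.6, pandas 2.3.3 and scipy 1.17.1, and drawn with matplotlib 3.10.9. Genes came from a RefSeq table on Release 6, the assembly of dm6, with no strand, exons or sequence; 13922 protein-coding genes lie on the 6 arms. Two-sided Fisher's exact tests compared chromosome 4 with 2L, 2R, 3L and 3R, with p-values adjusted by Benjamini-Hochberg over 6 (kept regions), 8 (overlap), 6 (genes) and 3 (wider pairs) tests and 0.05 as the threshold. Shares have Wilson and differences Newcombe intervals at 95%, which cover counting only. The code was tested on simulated data.

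The regions and gene lists were chosen with earlier results of these data known, and the test of wider pairs and the alternative of genes of at least 5 kb were added after the data were seen. Named genes were all members of 6 gene lists as counts with examples, genes at the 5 widest regions of each list, genes gained or lost (the 15 with the widest region where more), genes at MSL2 or MOF regions and the 5 longest genes touched by all lists; genes named for wide changes, a lone mark or an unmarked stretch were chosen after their values were seen. The values of 1 gene are not reported here, and it is counted in the totals. Alternatives were joined regions (within 1 kb), the widest 50% of each list, a 50% overlap, a gap of 1 kb, covered length, 50% of a gene body, 1 kb added to genes, all genes, X as comparison and any base in a gene.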

Additional observations from a re-analysis of the deposited data

Results flagged for a closer look

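Among region pairs matched one to one between the stages, the share wider at 11-12 h differed between chromosome 4 and the other autosomes in 2 lists. For H3K36me3 the difference was 38.7 points, 37 of 46 against 995 of 2384 pairs. For MNase H4K16ac it was 43.4 points, 8 of 8 against 197 of 348 pairs, where the stages also differ in the amount of MNase, 0.9 and 2.9 units per g, whose part in the result was not tested. The MNase call was lost when regions were joined (adjusted p = 0.0674), at genes of at least 5 kb (adjusted p = 0.231) and in the widest 50% of each list, which left 1 pair on chromosome 4 (adjusted p = 1, all Fisher's exact test). Both differences come from a Fisher's exact test of the shares themselves, added after the data were seen. On X 42.3% of the H3K36me3 pairs and 97.5% of the MNase H4K16ac pairs were wider.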

How the results depend on the processing

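Each of the 171 alternative values of the main comparisons was set beside its main value. Of these, 112 kept their direction and their side of the threshold or stayed within their interval, 17 kept the direction and lost the call, 5 gained a call, 22 values without a test moved and 15 turned their direction. Of 221 alternative values for single genes 220 stayed close; joining regions took CG46466 to 100% under sonicated H4K16ac at 11-12 h. Differences below are in percentage points, chromosome 4 minus the other autosomes, and where no cause is named the cause was not tested.

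Among regions at genes of at least 5 kb, the overlap of H3K36me3 with sonicated H4K16ac turned to 19.8 at 3-4 h and 3.67 at 11-12 h. With MNase H4K16ac it turned to 1.67 at 3-4 h. At 11-12 h it kept its direction, from 4.92 to 23.1, and gained a call. Overlap of sonicated H4K16ac with H3K36me3 turned to 8.35 at 3-4 h and came to -2.98 at 11-12 h; that of MNase H4K16ac came to -30.2 and turned to 1.26. With a 50% overlap, H3K36me3 with sonicated H4K16ac at 3-4 h gave -24.8, now past the threshold, and with MNase H4K16ac at 11-12 h it turned to -4.84. H3K36me3 with sonicated H4K16ac at 11-12 h lost its call with a gap of 1 kb (-11.0), joined regions (-13.4) and the widest 50% (-14.2). In the widest 50%, which leaves fewer regions, calls were also lost for sonicated H4K16ac with H3K36me3 (-21.4 and -35.0), for MNase H4K16ac with H3K36me3 (-59.5 and -24.7) and for H3K36me3 with MNase H4K16ac at 3-4 h (-5.96). Counted in bases, sonicated H4K16ac under H3K36me3 at 3-4 h moved to -44.6, H3K36me3 under MNase H4K16ac at 3-4 h to -4.47, and kept H3K36me3 of 3-4 h to 6.97.

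With at least 50% of the gene body covered, genes touched gave -6.33 and -1.92 for sonicated H4K16ac, -3.32 and -1.44 for MNase H4K16ac, and -2.04 and 4.23 for H3K36me3. Against X the differences were -1.72 and -29.3, -45.4 and -35.7, and 10.8 for H3K36me3 at 11-12 h. H3K36me3 at 3-4 h passed with 1 kb added to genes (13.6), and H3K36me3 at 11-12 h did not over all genes (8.24) or genes of at least 5 kb (3.49). MNase H4K16ac at 3-4 h passed at genes of at least 5 kb (10.3). Pairs of MNase H4K16ac wider at 11-12 h lost the call at such genes (30.8), joined (40.6) and in the widest 50% (34.2, with 1 pair), and sonicated pairs passed in the widest 50% (80.0, with 3 pairs).

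The widest 50% left 25 and 11 sonicated H4K16ac, 1 and 16 MNase H4K16ac, and 31 and 38 H3K36me3 regions, with 29.6 kb of sonicated H4K16ac at 11-12 h, 2.01 kb of MNase H4K16ac at 3-4 h and a stage ratio of 23.5 for MNase H4K16ac. With 50% of the body, gained and lost genes came to 1 and 2 for sonicated H4K16ac and 4 and 0 for MNase H4K16ac, and 1 gene lost H3K36me3; with 1 kb added, 2 gained it. With any base in a gene in place of the midpoint, 92.1% and 93.1% of sonicated H4K16ac and 98.2% and 98.3% of H3K36me3 regions lay in genes.

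No paired analysis was possible because each list pools the replicates of its group. Leaving out each replicate, starts covered by regions and promoter motifs were not run, since the files used give no list per replicate, strand or sequence. Depth is unknown, so absence of a gene from a list does not show absence of the mark.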

Other observations

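The genes of chromosome 4 that encode no protein, which stand in no comparison above, were touched by any of the 6 lists in 16 of 34 cases (47.1%), against 25.2% of 2744 genes of the same kinds on the other autosomes, with no test. Among protein-coding genes 72.5% and 56.0% were touched. The 16 were 7 of 10 antisense RNAs (other autosomes 55.6%), 5 of 14 long noncoding RNAs (9.10%), 2 of 7 pseudogenes (21.7%), 1 of 2 microRNA genes (33.0%) and the single snoRNA gene (83.1%), snoRNA:CD-24, which lies inside RpS3A. The second widest MNase H4K16ac region of 11-12 h, chr4:57073-61958 with 4.89 kb, touched no protein-coding gene and lay on asRNA:CR43957, as did the third widest sonicated region of that stage, chr4:58195-61178 with 2.98 kb. This antisense RNA gene overlaps ci, and the MNase region lay 32 bp from ci. The microRNA gene mir-954 carried H4K16ac on both preparations at 11-12 h and in no list at 3-4 h. asRNA:CR44031, which overlaps Mpv17, was touched by all 6 lists. The table gives no strand, and a region cannot be assigned to 1 of 2 genes that overlap.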
